A study of Sus scrofa with 6 samples.

Results

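Heat shock and endoplasmic reticulum (ER) stress genes were followed in neonatal pig Sertoli cells (NPSC), the nurse cells of the seminiferous tubule, before and after contact with human serum that held active complement. The members were 10 genes listed by name, drawn up with earlier results of these data known: HSPA5, HSP90B1, HSP90AA1, HSPA8, HSPH1, DNAJB1, HSPB1, DDIT3, ATF4 and XBP1. Of these, 7 of 10 matched a gene identifier of the counts files, out of 25149 genes listed there, and all 7 passed the filter on low counts among 17512 genes tested. HSPB1, DDIT3 and ATF4 were not matched and have no value here.

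The cells came from testes of wild-type Duroc-Landrace pigs aged 3 to 5 days and were grown in DMEM with fetal bovine serum. Baseline NPSC (3 plates) received more DMEM, and complement NPSC (3 plates) received pooled human AB serum in an equal volume, for 90 min, before RNA was taken for bulk sequencing with 1 library per plate. The control held no inactivated human serum, so the effect of complement and that of the other components of serum cannot be told apart. Plates are the replicates, and which litter each sequenced plate came from is not stated, so p-values measure the spread between these plates.

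Heat shock proteins are chaperones that bind unfolded proteins, help them fold and keep them from clumping. In the cytosol the transcription factor HSF1 switches them on when unfolded protein builds up. In the ER the same problem starts the unfolded protein response, whose sensors PERK (EIF2AK3), IRE1 (ERN1) and ATF6 raise ER chaperones and, through the factors ATF4, DDIT3 and XBP1, further stress genes. Sertoli cells secrete much protein and thus pass a large load through the ER.

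The 6 libraries held 3641518 to 8371923 counts on genes, and each complement NPSC library was shallower than each baseline NPSC library. They also differed in how densely 48 olfactory receptor genes, which encode odour sensors of the nose, were covered. Their count density, scaled to the library total and given as CPM per kilobase of exon, was 2.15, 1.20 and 1.18 in baseline replicates 1, 2 and 3 and 4.01, 4.44 and 1.51 in complement replicates 1, 2 and 3. Over all genes tested 18 were called at an adjusted p under 0.05 by edgeR's quasi-likelihood test, and no call had a log2 fold change under 1.21 in size. Of the Sertoli cell markers 8 of 9 were matched and none was at 0, with SOX9, FSHR and DHH all counted and AMH not matched. Their summed level was 1424 to 1742 CPM in baseline NPSC and 955 to 1115 CPM in complement NPSC. Most of the sum was CLDN11, INHA, SOX9 and GATA4, whose log2 fold changes were −0.63, −0.73, −0.28 and −0.76. WT1 and FSHR had −0.66 and −0.60, while DHH and KRT18 had 0.63 and 0.61. Of the 8 markers 4 lay lower in all complement NPSC libraries (CLDN11, INHA, GATA4 and WT1) and 1 higher (KRT18), 62.5% in all against 17.1% of all genes tested, and 7 had an unadjusted p under 0.05 but none was called (edgeR). Markers of other testis cells were present too: the summed level of peritubular myoid markers was 2458 to 3722 CPM in baseline NPSC and 1912 to 3569 CPM in complement NPSC (5 of 5 matched, MYH11 at 0), and that of Leydig cell markers was 936 to 1139 and 713 to 760 CPM (4 of 5 matched, CYP11A1 at 0). For endothelial cells (3 of 5 matched) the ranges were 367 to 556 and 256 to 608 CPM, for macrophages (4 of 6 matched) 52.8 to 83.9 and 38.2 to 63.4 CPM, and for germ cells (3 of 5 matched) 23.3 to 33.8 and 20.03 to 34.4 CPM. Of the macrophage markers LYZ had a log2 fold change of −2.28 (adjusted p = 0.261, edgeR, and 0.0235, DESeq2 Wald test), at 1 to 14 counts in complement NPSC. CSF1R had −0.75, PTPRC −0.15 and CD68 0.11 (edgeR). The part that the Sertoli and Leydig marker sums, which lay lower in complement NPSC, play in the values below was not tested, and in bulk samples fewer cells of a type and less RNA per cell cannot be told apart.

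None of the 7 genes was called in either direction. By edgeR's quasi-likelihood test 0 of 7 had an adjusted p under 0.05 and 0 of 7 an unadjusted p under 0.05, where 0.103% and 15.2% of all genes tested did, and the DESeq2 Wald test, which called 0.424% of genes, also called 0 of 7, with 0 at an unadjusted p under 0.05, where 13.5% of all genes tested were. In 6 of the 7 the log2 fold change lay below 0, with a median of −0.22, while HSPH1 lay above 0. Over all genes tested 48.5% lay below 0, with a median of 0.02. The 7 genes are abundant, and among the 2828 genes whose mean level was at least that of the lowest of them (73.4 CPM) 87.0% lay below 0 and the median was −0.25, a comparison added after the data were seen. The group as a whole thus sat close to other genes of at least its abundance.

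HSPA5 encodes BiP, the main HSP70 chaperone of the ER lumen and the standard readout of the unfolded protein response. It lies on chromosome 1 from 299754095 to 299758545 on the minus strand in the files' coordinates, whose build is unnamed, with 9 exons (ENSSSCG00000005601). Its level, in CPM of the TMM-normalized library size, was 1064, 1921 and 1635 in baseline replicates 1, 2 and 3 and 849, 1093 and 1425 CPM in complement replicates 1, 2 and 3. The highest values were in baseline replicates 2 and 3, but baseline replicate 1 lay below complement replicates 2 and 3, so the conditions overlapped. Baseline NPSC averaged 1540 ± 436 CPM and complement NPSC 1122 ± 289 CPM (SD, n = 3 each). The log2 fold change came to −0.46 (SE 0.34, 95% confidence interval −1.18 to 0.27, adjusted p = 0.478, edgeR). A fold rise of more than 1.21 lay outside this interval.

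HSP90B1 encodes GRP94, the HSP90 chaperone of the ER, which folds integrins and Toll-like receptors. The gene (ENSSSCG00000000849) lies on chromosome 5 from 84016446 to 84084086, minus strand, with 25 exons. It was counted at 571, 763 and 739 CPM in baseline NPSC and at 414, 489 and 655 CPM in complement NPSC, with complement replicate 3 above baseline replicate 1. The log2 fold change was −0.41 (SE 0.28, interval −1.005 to 0.18, adjusted p = 0.443, edgeR), the smallest adjusted p of the 7 genes. Both ER chaperones therefore had lower means in complement NPSC, with libraries of the conditions that overlapped.

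HSP90AA1, the stress-inducible cytosolic HSP90, holds kinases and steroid receptors in an active fold. It lies on chromosome 7 from 129758772 to 129761205, plus strand (ENSSSCG00000002535), and the files give it 3 exons with 1866 bp. Its level was 500, 861 and 837 CPM in baseline NPSC and 419, 569 and 663 CPM in complement NPSC, and the log2 fold change came to −0.41 (SE 0.30, interval −1.05 to 0.23, adjusted p = 0.469, edgeR). As for HSPA5, baseline replicate 1 fell among the complement NPSC libraries.

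HSPA8 encodes HSC70, the constitutive cytosolic HSP70, which also strips clathrin from vesicles. The gene (ENSSSCG00000015140) is on chromosome 9 from 55406199 to 55409607, plus strand, with 10 exons. It stood at 103, 126 and 136 CPM in baseline NPSC and at 79.9, 118 and 143 CPM in complement NPSC, so complement NPSC held both the lowest and the highest library. The log2 fold change was −0.10 (SE 0.23, interval −0.59 to 0.40, adjusted p = 0.825, edgeR). HSPA8 and HSP90AA1 have near-identical processed copies in mammalian genomes, and how reads that match several places were counted is not stated, so the absolute levels of both are uncertain.

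DNAJB1 encodes HSP40, the co-chaperone that delivers unfolded proteins to HSP70 and stimulates its ATPase. It lies on chromosome 2 from 65177577 to 65180388, minus strand, with 3 exons (ENSSSCG00000013784). It had 69.7, 132 and 109 CPM in baseline NPSC and 64.1, 104 and 108 CPM in complement NPSC, and edgeR gave a log2 fold change of −0.17 (SE 0.26, interval −0.72 to 0.38, adjusted p = 0.714). The lowest value of each condition was in replicate 1, and the other 4 lay between 104 and 132 CPM.

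HSPH1 encodes HSP110, the nucleotide exchange factor that resets HSP70 and works with HSP40 to dissolve protein aggregates. It is on chromosome 11 from 7585525 to 7661067, minus strand, with 19 exons (ENSSSCG00000009334). Its level was 88.6, 150 and 130 CPM in baseline NPSC and 105, 131 and 186 CPM in complement NPSC, which gave it the opposite sign to the other 6 genes. The log2 fold change was 0.20 (SE 0.25, interval −0.34 to 0.74, adjusted p = 0.667, edgeR). The highest library was complement replicate 3 and the lowest baseline replicate 1, with the other 4 between 105 and 150 CPM.

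XBP1 encodes the transcription factor made when IRE1 removes a short intron from its mRNA, and it drives ER chaperone and degradation genes. The files give it a single exon of 807 bp on chromosome 14 from 49015844 to 49016650, minus strand (ENSSSCG00000030996), and counts per gene do not tell its spliced from its unspliced form. It had 72.8, 88.5 and 75.6 CPM in baseline NPSC and 55.6, 60.8 and 87.2 CPM in complement NPSC, and the log2 fold change came to −0.22 (SE 0.21, interval −0.66 to 0.23, adjusted p = 0.572, edgeR). Complement replicates 1 and 2 lay below all baseline NPSC libraries, and complement replicate 3 lay near the highest of them.

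**Figure D1:**
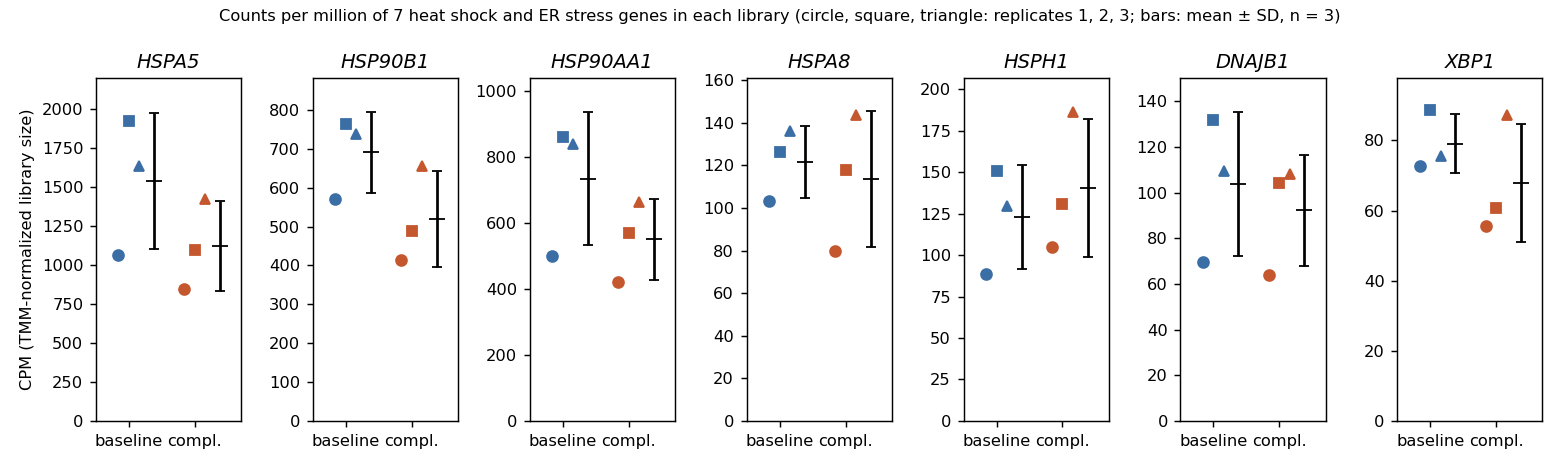
CPM of the 7 genes in each library (vertical axes, each from 0) for baseline NPSC (blue) and complement NPSC (orange), with the mean ± SD of 3 libraries beside the points. The conditions overlap for every gene: HSPA5 spans 1064 to 1921 CPM in baseline NPSC and 849 to 1425 CPM in complement NPSC.

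The groups did not overlap for 0 of the 7 genes, where they did not overlap for 17.1% of all genes tested. With 3 plates against 3 the smallest two-sided exact permutation p is 0.1, which no design of this size can go under. Without baseline replicate 1, 4 of the 7 genes lay lower in all complement NPSC libraries than in the remaining baseline NPSC libraries, where 19.6% of all genes tested and 36.9% of the 2828 abundant genes did. Without complement replicate 3, 2 of the 7 did, where 26.8% and 68.5% did. Left-out libraries brought 0 calls among the 7 genes, with adjusted p no lower than 0.0612 (HSP90B1 without complement replicate 3, edgeR).

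**Figure D2:**
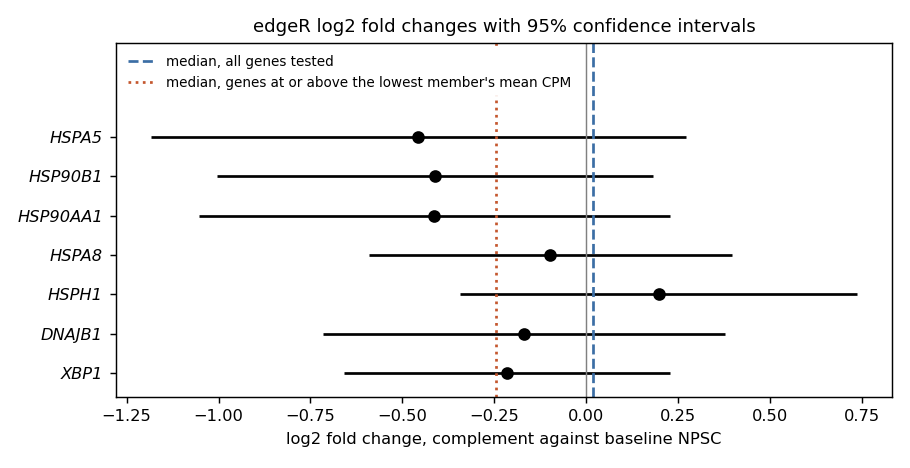
Log2 fold changes of the 7 genes from edgeR (horizontal axis, complement against baseline NPSC) with 95% confidence intervals as lines. All 7 intervals include 0 and also the median of the 2828 genes of at least the abundance of the lowest member, −0.25 (dotted); the dashed line is the median of all genes tested, 0.02.

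Levels of different genes were compared per kilobase of exon. In baseline NPSC the order was HSPA5 at 749 ± 212 CPM per kilobase (SD, n = 3), HSP90AA1 at 393 ± 108, HSP90B1 at 268 ± 40.6, XBP1 at 97.9 ± 10.4, DNAJB1 at 79.5 ± 24.2, HSPA8 at 62.8 ± 8.73 and HSPH1 at 34.2 ± 8.75. HSPA5 ranked 58 from the top among the 17512 genes tested on this scale. The ranges of HSP90AA1 and HSP90B1 overlapped, as did those of XBP1 and DNAJB1 and those of DNAJB1 and HSPA8, so over the libraries the ranges do not separate these neighbours. Within a library, where both genes share the same depth, HSP90AA1 exceeded HSP90B1 in 6 of 6 libraries (1.21 to 1.61 times), DNAJB1 exceeded HSPA8 in 6 of 6 (1.005 to 1.55 times) and XBP1 exceeded DNAJB1 in 5 of 6 (0.944 to 1.69 times). The order was the same in complement NPSC, from HSPA5 at 546 ± 141 CPM per kilobase (SD, n = 3) to HSPH1 at 39.1 ± 11.6, where the ranges of HSPA8 and HSPH1 overlapped as well. HSPA5, HSP90AA1 and HSP90B1 had the 3 highest means in both conditions, with the place of HSP90AA1 and HSPA8 in the order uncertain because of their processed copies. The place of XBP1 rests on a single annotated exon of 807 bp, and whether this covers its whole mRNA was not checked.

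The 7 genes varied together from plate to plate. Among baseline NPSC, replicate 1 was the lowest library for all 7, and it had the highest olfactory receptor density of its condition. Among complement NPSC, replicate 3 was the highest for all 7, and it had the lowest density of its condition. The lowest complement library for all 7 was replicate 1, although its density of 4.01 was below the 4.44 of replicate 2. Replicate 1 was thus the lowest library of each condition. The highest library exceeded the lowest by 1.59-fold (XBP1) to 2.26-fold (HSPA5), and the part of the density in these levels was not tested beyond the following fits. With the density as a covariate in edgeR, the median log2 fold change of the 7 genes was −0.05 and 4 lay below 0, and with the expected background subtracted it was 0.01 and 3 lay below 0. The density was higher in complement replicates 1 and 2 than in every baseline NPSC library, so the covariate and the condition are partly confounded. The subtraction raised the values of all 7 genes by a similar amount, 0.21 to 0.28, and moved the median of the 2828 abundant genes from −0.25 to −0.0786 and that of all genes from 0.02 to −0.0024, so sign turns under it reflect a shift that the members had in common. Relative to the median of the abundant genes, 4 of the 7 lay above it with all counts, with the subtraction and with the covariate alike. HSPH1 had 0.50 with the covariate (unadjusted p = 0.00694, adjusted p = 0.334, edgeR) and 0.41 with the background subtracted (unadjusted p = 0.0762, adjusted p = 0.521, edgeR). The share of all genes under an unadjusted p of 0.05 with the covariate or the subtraction is not given here. With a replicate block, HSPA5, HSP90B1 and HSP90AA1 had an unadjusted p of 0.122, 0.0784 and 0.106 in edgeR (adjusted p = 0.273, 0.21 and 0.251) and of 0.00478, 0.00482 and 0.00574 in DESeq2 (adjusted p = 0.0812, 0.0815 and 0.0865). In these fits 0 and 3 of the 7 genes had an unadjusted p under 0.05, where 31.1% and 20.7% of all genes tested did. The background expected from exon length was small for these genes, from 0.315% of the counts of HSPA5 to 5.77% of those of HSPH1. With intervals that include 0 and conditions that overlap for all 7 genes, these data do not fix the sign of any of them. HSPA5, HSP90B1 and HSP90AA1 had a log2 fold change below 0 in all 17 settings run, from −0.70 to −0.12, but these settings refit the same libraries, and the median of the 2828 abundant genes was also below 0 in all 17, from −0.47 to −0.0786.

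**Figure D3:**
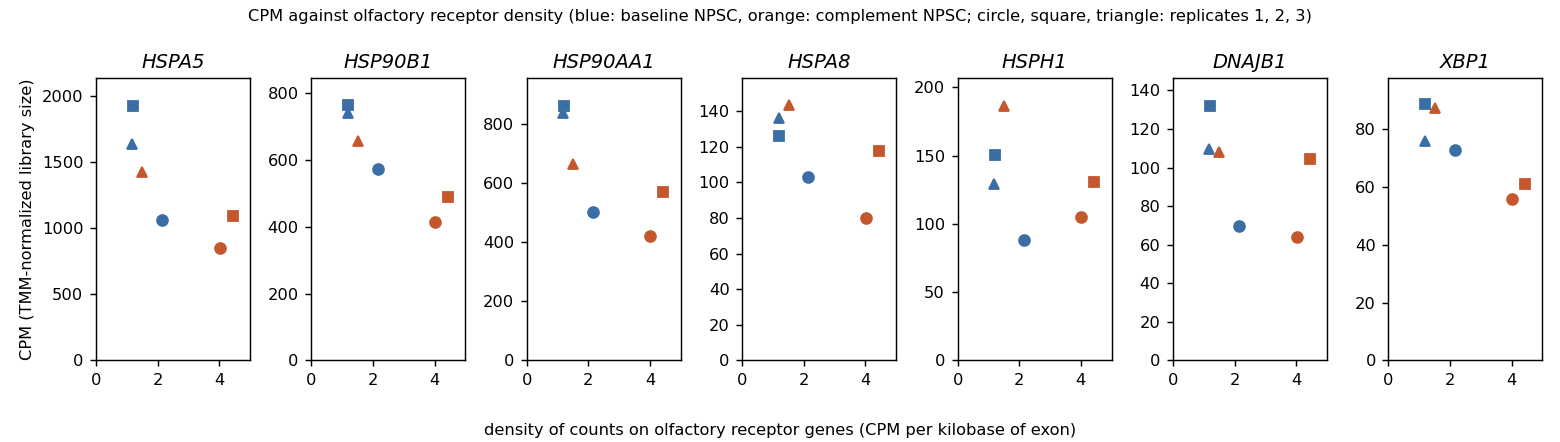
CPM of each gene (vertical axes, from 0) against the olfactory receptor count density of the same library (horizontal axes, CPM per kilobase of exon), baseline NPSC in blue and complement NPSC in orange. Baseline replicate 1, at a density of 2.15, is the lowest baseline library for all 7 genes, and complement replicate 3, at 1.51, the highest complement library. Complement replicate 1, at 4.01, is the lowest complement library for all 7, below replicate 2 at a density of 4.44.

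Pearson's r of log2 CPM over the 6 libraries was 0.98 for HSPA5 with HSP90AA1, 0.96 for HSPA5 with HSP90B1 and 0.51 for HSPH1 with HSP90B1, the highest, next and lowest of 21 pairs. These values describe 6 libraries that share depth and background differences. Once the mean of each condition was taken out, r was 0.99 for HSPH1 with HSPA5, against 0.64 before, and this was the highest of the 21 pairs. It was also 0.98 for HSPH1 with HSP90B1, 0.95 with HSP90AA1, 0.91 with DNAJB1 and 0.88 with both XBP1 and HSPA8. HSPH1 thus followed the other members, and not HSPA5 alone, from plate to plate within a condition. Its level relative to HSPA5 had an offset between the conditions. Among 11054 tested genes with a symbol, those most like HSPA5 over the 6 libraries were CCT8, CILK1 and AKIRIN2, with r of 0.997 for CCT8 and 0.993 for the other two, and 784 genes had r above 0.9. For DNAJB1 they were ZSCAN12, PPAT and VCAN, with r of 0.995, 0.992 and 0.985.

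The offset was read as a ratio of counts within each library, which needs no normalization between libraries. This measure was chosen after the values were seen. Counts of HSPH1 were 8.32%, 7.83% and 7.92% of those of HSPA5 in baseline replicates 1, 2 and 3 and 12.4%, 11.96% and 13.1% in complement replicates 1, 2 and 3. The ratio was 8.03% ± 0.262 (SD, n = 3) in baseline NPSC and 12.5% ± 0.565 (SD, n = 3) in complement NPSC, 1.55 times as high, and the conditions did not overlap. It stayed between 1.52 and 1.59 times as high with any 1 library left out and was 1.51 with the expected background subtracted. HSPA5 and HSPH1 had the lowest and highest log2 fold changes of the members, so this pair was the most extreme by selection. Its steadiness in the same libraries is therefore no separate support. Over all genes tested, the ratio to HSPA5 lay higher in all complement NPSC libraries for 7.93% of genes and lower for 0.171%, so HSPH1 shares this property with many genes.

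HSPH1 also lay higher relative to HSP90AA1 and HSP90B1. Its counts were 16.9% ± 1.23 of those of HSP90AA1 in baseline NPSC and 25.4% ± 2.60 in complement NPSC, and 17.6% ± 2.10 and 26.8% ± 1.55 of those of HSP90B1 (SD, n = 3), with no overlap in either. Over all genes tested the ratio lay higher in all complement NPSC libraries for 6.84% with HSP90AA1 as the divisor, 15.8% with HSP90B1 and 7.52% with XBP1, shares computed after the values were seen. Of 21 pairs, 6 had ratios that did not overlap, and 4 of these 6 involved HSPH1, the fourth with XBP1. Pairs share members and libraries, so they are not independent. The others were DNAJB1 with HSPA5 (6.71% ± 0.160 and 8.23% ± 1.14, SD, n = 3) and HSPA8 with HSP90B1 (17.7% ± 0.979 and 21.8% ± 2.40, SD, n = 3). HSP90AA1 and HSP90B1 overlapped relative to HSPA5, at 47.7% ± 3.26 and 49.3% ± 2.80 for HSP90AA1 and 46.2% ± 7.01 and 46.5% ± 2.05 for HSP90B1 (SD, n = 3). HSPH1 overlapped between the conditions relative to HSPA8 and relative to DNAJB1. The exact permutation test cannot give less than p = 0.1 for any of these ratios.

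**Figure D4:**
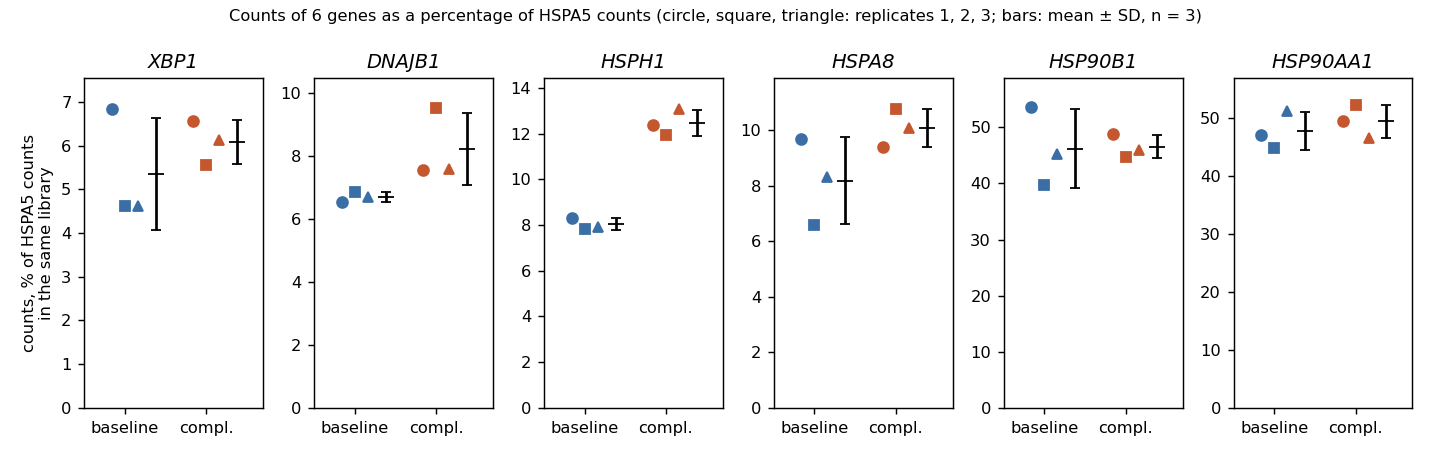
Counts of 6 genes as a percentage of HSPA5 counts in the same library (vertical axes, from 0) for baseline NPSC (blue) and complement NPSC (orange), with the mean ± SD of 3 libraries. HSPH1 lies at 7.83% to 8.32% in baseline NPSC and at 11.96% to 13.1% in complement NPSC, DNAJB1 also separates, and the other 4 genes overlap.

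The rest of both pathways was described with 8 further lists. Of their 126 genes 87 were matched and 82 tested, and 0 were called by edgeR's quasi-likelihood test or by the DESeq2 Wald test, with 7 (8.54%) and 14 (17.1%) at an unadjusted p under 0.05, where 15.2% and 13.5% of all genes tested were. The log2 fold change was below 0 for 69 of the 82, with a median of −0.25. Of the 82, 44 were at least as abundant as the lowest member, with a median of −0.34 against −0.25 over all 2828 such genes, and the other 38 had a median of −0.21 against 0.13 over the 14684 less abundant genes, a split made after the values were seen. The less abundant class reaches down to the filter on low counts. Within a class the list genes were not matched to the others for level, so these medians do not compare genes of like abundance. The inducible HSP70 genes HSPA1A and HSPA1B were not matched.

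In the cytosol, 23 of 33 chaperones and co-chaperones were tested: 18 had a log2 fold change below 0 and the median was −0.24. HSP90AB1, the constitutive HSP90, had 1277, 1737 and 1831 CPM in baseline NPSC and 1015, 1189 and 1612 CPM in complement NPSC. STIP1, which links HSP70 to HSP90, had a log2 fold change of −0.47 (adjusted p = 0.353, edgeR). DNAJB4, another HSP40, had 42.04, 35.3 and 29.6 CPM in baseline NPSC and 51.6, 38.6 and 85.5 CPM in complement NPSC, the highest in complement replicate 3. Its log2 fold change of 0.72 (adjusted p = 0.273, edgeR) was the highest of all list genes, and it was 0.31 without complement replicate 3. CACYBP, a ubiquitin ligase adaptor, had a log2 fold change of −0.48 (adjusted p = 0.312, edgeR). Both heat shock factors tested, HSF1 and HSF2, lay below 0 at −0.28 and −0.12. All 6 cytosolic chaperonin subunits tested of 8 lay below 0 with a median of −0.31, and CCT3 and CCT8 had −0.41 and −0.38. Of the mitochondrial chaperones and proteases 5 of 8 were tested with a median of −0.37, and HSPA9, HSPE1 and TRAP1 had −0.40, −0.37 and −0.37.

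In the ER, 14 of 21 chaperones and folding enzymes were tested and 13 lay below 0, with a median log2 fold change of −0.33. The disulfide isomerases PDIA3 and PDIA6 had −0.31 and −0.43, the calcium-binding chaperone CALR had −0.44, and the oxidase ERO1A had 0.00. All 8 tested of 15 genes of ER-associated degradation lay below 0, among them VCP, the ATPase that pulls proteins out of the ER, at −0.39, its cofactor NPLOC4 at −0.20 and SEL1L at −0.26. Of the sensors and kinases 6 of 10 were tested with a median of −0.14: EIF2AK3 (PERK) had 0.07, ATF6 −0.21, ATF6B −0.34, and MBTPS1, the protease that cuts ATF6, −0.36.

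Over the 8 lists together the groups did not overlap for 13 of 82 genes (15.9%), 2 higher and 11 lower, against 17.1% of all genes tested. Of integrated stress response targets, the genes that ATF4 and DDIT3 act on, 18 of 27 listed were tested (median −0.17), and 6 of the 18 did not overlap, 1 higher and 5 lower, against 8.95% and 8.14% of all genes tested. VLDLR, a lipoprotein receptor, had 144, 110 and 119 CPM in baseline NPSC and 86.8, 62.3 and 86.7 CPM in complement NPSC, and its log2 fold change came to −0.66 (SE 0.21, adjusted p = 0.267, edgeR). SLC3A2, an amino acid transporter subunit, had −0.45 (adjusted p = 0.355, edgeR). ATF3, an immediate early transcription factor that is also an ATF4 target, had 55.5, 114 and 68.9 CPM in baseline NPSC and 101, 110 and 142 CPM in complement NPSC, and its log2 fold change came to 0.57 (SE 0.25, adjusted p = 0.314, edgeR). It ranged from 0.35 without baseline replicate 1 to 0.90 without baseline replicate 2, and was 0.89 with the olfactory receptor density as a covariate (adjusted p = 0.0599, edgeR). PPP1R15A (GADD34), which ends the block on translation, had 181, 270 and 206 CPM in baseline NPSC and 243, 264 and 331 CPM in complement NPSC (log2 fold change 0.35, adjusted p = 0.448, edgeR). This value was 0.18 without complement replicate 3, 0.55 with the covariate (unadjusted p = 0.00491, adjusted p = 0.302, edgeR) and 0.61 with the background subtracted (unadjusted p = 0.00293, adjusted p = 0.334, edgeR). For both of these genes baseline replicate 2 lay among the complement NPSC libraries. How many of all genes reached an unadjusted p under 0.05 with the covariate or the subtraction is not given here.

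**Figure D5:**
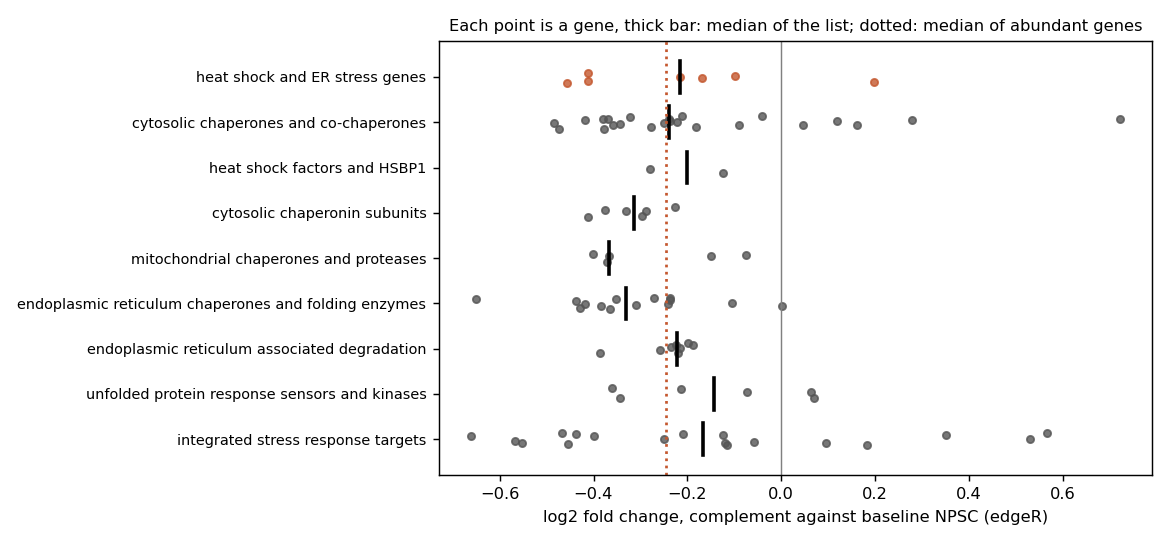
Log2 fold changes (horizontal axis, complement against baseline NPSC, edgeR) of the 7 heat shock and ER stress genes (orange points) and of the tested genes of 8 pathway lists (grey points), 1 row per list, with the median of each as a thick bar. Medians lie between −0.14 and −0.37, and the dotted line marks the −0.25 of all genes at least as abundant as the lowest member, an abundance that 44 of the 82 list genes reach.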

How the data were processed

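Bulk RNA sequencing of 6 NPSC libraries, 3 per condition, was analysed. The authors deposited raw counts per Ensembl pig gene with exon coordinates and summed exon length. The submitters' processing notes name Trimmomatic 0.36, STAR 2.5.2b and featureCounts of Subread 1.5.2, and the genome build, strand setting and handling of multi-mapped reads are not given in the sources used here. Symbols came from a table of names that matched 11804 identifiers. Counts were filtered with filterByExpr, normalized by TMM and tested with edgeR 4.0.16 in R 4.3.3 (quasi-likelihood F-test, Benjamini-Hochberg adjustment over all 17512 genes tested). CPM use the TMM-normalized library size, and log2 CPM for correlations a prior count of 2. Confidence intervals are at 95% and cover the spread between plates. Background expected for a gene was taken as its exon length multiplied by the count density of 48 olfactory receptor genes (45945 bp) in that library. DESeq2 1.42.0 and the other alternatives are given in the closing section, and plots were drawn with matplotlib 3.10.9. The procedure was run on simulated counts with far larger changes than those of the members and with no background or shared variation between plates. That run does not bear on changes of the members' size.

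The members and lists were chosen with earlier results of these data known. The text names all matched members and, from each of 8 lists, called genes, the 2 highest by CPM per kilobase and the smallest p in each direction, with the 3 genes most like HSPA5 and like DNAJB1. The same was planned for DDIT3, which was not matched. Promoter and protein sequences were not used here. Ratios between members were added after the data were seen.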

Additional observations from a re-analysis of the deposited data

How the results depend on the processing

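The count of called members was 0 in all 17 settings run. With a library left out, called genes over the whole table ranged from 9 (without baseline replicate 2) to 1855 of 18443 (without complement replicate 3). The 1855 were 1155 higher and 700 lower, and without baseline replicate 1 there were 327 calls. Pathway list genes called ranged from 0 to 7 of 82, the 7 without complement replicate 3, all lower. Members whose groups do not overlap ranged from 0 to 4. Genes called were 64 with the DESeq2 Wald test, 31 without a filter, 31 with the expected background subtracted and 66 with olfactory receptor density as a covariate. Upper-quartile scaling shifted the median over all genes from 0.02 to 0.13 and the members by 0.10 to 0.12, and gave 21 calls, all higher.

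Replicates of the same number were not taken as pairs: their deviations from the condition means correlated at 0.46, 0.03 and 0.48, and not every library correlated best with its own number. With a replicate block, edgeR called 2515 of 17512 genes (1871 higher, 644 lower) and 7 of 82 pathway list genes (2 higher, 5 lower). DESeq2 with the block called 416 of 14231 genes (196 higher, 220 lower) and 1 pathway list gene, which was lower. Among the genes named, the block in edgeR called DNAJB4, CACYBP, ATF3 and VLDLR, while in DESeq2 it called VLDLR (adjusted p = 0.0159) and left DNAJB4, CACYBP and ATF3 at 0.177, 0.115 and 0.132. Without complement replicate 3, edgeR called VCP, SLC3A2 and VLDLR among the genes named (adjusted p = 0.0424, 0.0412 and 0.0412).

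Log2 fold changes that turned their sign lay between −0.22 (XBP1) and 0.20 (HSPH1) in the main fit, and none of these was called. Turns under upper-quartile normalization and the subtraction came with a shift that the members had in common (0.10 to 0.12 and 0.21 to 0.28), and are no change relative to one another. HSPA8 had 0.0096 with upper-quartile normalization, 0.13 with the background subtracted and 0.0814 with the covariate, and −0.33 to 0.11 with a library left out. DNAJB1 had 0.0838 with the background subtracted, 0.13 with the covariate and −0.40 to 0.0428 with a library left out. HSPH1 ranged from −0.0892 (without complement replicate 3) to 0.37 with a library left out and moved from 0.20 to 0.50 with the covariate and to 0.41 with the background subtracted. XBP1 had 0.0087 with the background subtracted and −0.47 to −0.0879 with a library left out. ERO1A had −0.0555 with DESeq2's size factors, −0.0558 in the Wald test, −0.0406 without a filter, −0.0504 with the replicate block in DESeq2 and −0.17 to 0.0923 with a library left out. EIF2AK3 had −0.0018 with the replicate block in DESeq2 and −0.12 to 0.16 with a library left out, NPLOC4 had 0.0032 with the background subtracted, and HSF2 had 0.0356 with the covariate. The cause of the other turns was not tested. Counting error limits genes with few counts, and each member had at least 250 counts in every library.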
